A study of Homo sapiens with 12 samples.

Results

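The genes described here are 32 genes of cholesterol and fatty acid synthesis and of its control by the SREBP transcription factors. They were chosen by symbol from a list of pathway steps, with earlier results of these data known. All 32 were found among the 18752 genes with a unique symbol in the table. The data are RNA-seq of 3 human intrahepatic cholangiocarcinoma cell lines, which are established lines from bile duct cancers of the liver. Each line, HuH-28, RBE or SSP-25, was transfected with a control siRNA of scrambled sequence or with an siRNA against LKB1, and RNA was taken 48 h later. That gives 6 groups of 2 libraries, 12 libraries in all. HuH-28 grew in MEM and the other two lines in RPMI1640, both media with fetal bovine serum, so line and medium cannot be told apart in a comparison between lines. A line is 1 cell stock and no normal bile duct cell was among these libraries. The comparison asks how transcripts of the lipid synthesis pathway differed when the mRNA of the kinase LKB1 was lowered. It also asks how their levels differed among the lines with control siRNA.

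Cells make cholesterol from acetyl-CoA through mevalonate, isoprenoid diphosphates, squalene and a series of sterols. They make fatty acids from the same acetyl-CoA through malonyl-CoA. The SREBP proteins are membrane-bound transcription factors of the endoplasmic reticulum. When sterols are scarce, the escort protein SCAP carries them to the Golgi, where proteases release the part that enters the nucleus and switches on genes of sterol and fatty acid synthesis. When sterols are plentiful, INSIG proteins hold SCAP back. LKB1, encoded by STK11, is the kinase upstream of AMPK, an energy sensor known to act on enzymes of lipid synthesis. Cholangiocarcinoma cells, like other dividing epithelial cells, use these steps to build membranes.

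Values are the deposited signal, normalized reads per kilobase of gene, so levels may be compared between genes. Differences are LKB1 siRNA minus control siRNA on the log2(signal + 0.5) scale, with a standard error (SE). Adjusted p-values are those of limma over the 16114 genes tested. For each gene the 6 groups of 2 libraries share 1 estimate of the spread, moderated by that of other genes. The SE of a gene is therefore the same in each line and does not show the spread within that line. A gene is said to have risen or fallen where its adjusted p was under 0.05. The signal summed to between 9895492 and 11710687 per library, the read depth behind it is unknown, and duplicate libraries correlated at 0.994 to 0.996. STK11 read 698 and 600 with control siRNA against 223 and 206 with LKB1 siRNA in HuH-28, 485 and 430 against 130 and 156 in RBE, and 464 and 459 against 61.8 and 72.8 in SSP-25. The groups did not overlap, and STK11 fell in HuH-28 (-1.59 ± 0.11), RBE (-1.68 ± 0.11) and SSP-25 (-2.77 ± 0.11), with adjusted p = 1.1e-05, 3.2e-06 and 1.7e-07. The fall was larger in SSP-25 than in HuH-28 or RBE (adjusted p = 0.0019 and 0.0017).

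Of 6 biliary epithelial markers, KRT7, KRT8 and KRT18 were high in every library, while HuH-28 had a KRT19 signal of at most 17.3 and an EPCAM signal of at most 1.31. The summed signal of the 6 moved with the siRNA, from between 9457 and 10345 to between 12887 and 13632 in HuH-28, from between 46841 and 50331 to between 38411 and 38900 in RBE, and from between 15035 and 15306 to between 20360 and 21272 in SSP-25. Of 2 fibroblast markers, COL1A1 was high in HuH-28 and SSP-25 with COL1A2 at most 30.5, and their sum went from between 12724 and 13995 to between 16583 and 18631 in HuH-28, from between 44.2 and 44.6 to between 68.9 and 73.7 in RBE and from between 6549 and 6962 to between 10981 and 11368 in SSP-25. Of 5 hepatocyte markers, albumin stayed at or under 1.34, and TTR, TF and CYP3A4 at or under 25.4. The sum was highest in RBE, between 1157 and 1306 with control siRNA and between 1581 and 1592 with LKB1 siRNA. Nearly all of it was SERPINA1, between 1113 and 1244 with control siRNA and between 1541 and 1553 with LKB1 siRNA. PTPRC of leukocytes and PECAM1 of endothelium stayed at or under 12.8. The part of these markers in the lipid gene values was not tested, and in bulk RNA fewer cells of a kind and less RNA per cell cannot be told apart.

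Across the 3 lines, 20 of the 32 lipid genes rose and 7 fell on average with LKB1 siRNA. Of all genes tested, 27.3% rose and 25.2% fell, and of the genes whose mean signal was at least 100, as it was for all 32, 30.9% rose and 34.7% fell. The median log2 difference of the 32 was 0.20, against 0.03 over all genes. In HuH-28, 11 rose and 5 fell (background 14.3% and 15.5%), with a median of 0.08 against 0.01. RBE had 16 that rose and 3 that fell (background 22.1% and 18.6%), with a median of 0.23 against 0.01. SSP-25 had 19 that rose and 4 that fell (background 21.1% in each direction), with a median of 0.32 against 0.02. The number that rose was above its background share in every comparison, and the number that fell was at about that share or below it. Because the 32 were chosen with earlier results of these data known, these counts describe the list and are no independent test. Differences were mostly small, and with an average log2 difference above 1 required as well, 2 genes rose, MSMO1 and STARD4, and 0 fell at an adjusted or unadjusted p under 0.05 in limma (background 3.12% and 1.09%), the lowest average of the 32 being -0.77, in HMGCS1.

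**Figure D1:**
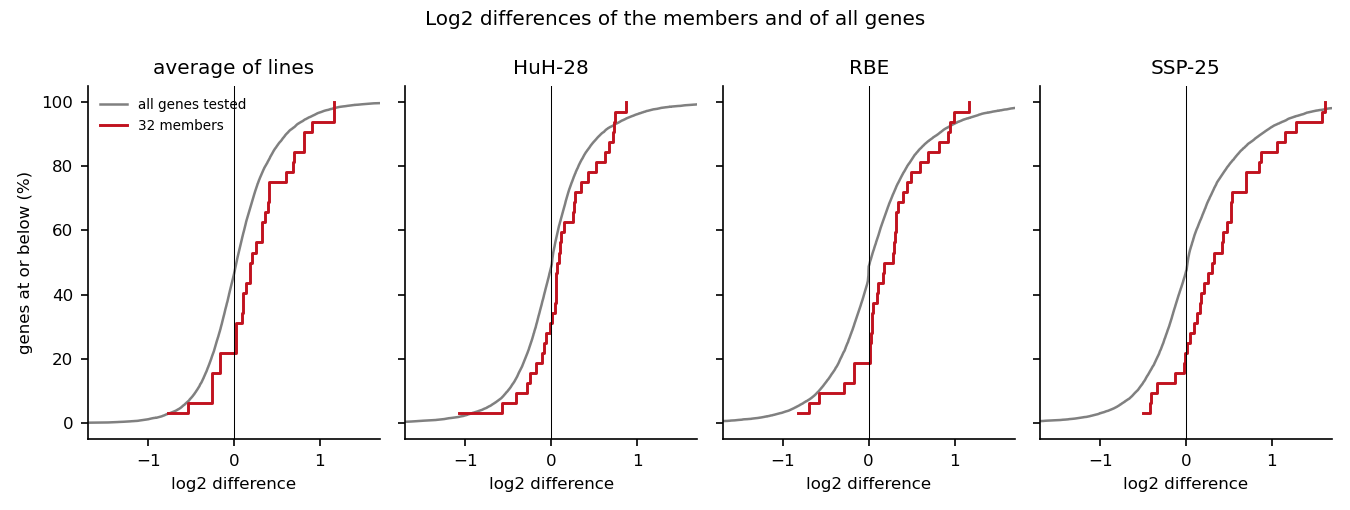
Share of genes at or below each log2 difference (x axis, LKB1 siRNA minus control siRNA, log2(signal + 0.5) scale; y axis, percent), for the 32 lipid genes in red and all 16114 genes tested in gray, for the average and each line; genes past the ends of the axis are not drawn. The red steps lie to the right of the gray curve over most of each panel, with medians of 0.20, 0.08, 0.23 and 0.32.

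In 15 of the 32 both LKB1 siRNA libraries lay above both control libraries in every line, and in 2, HMGCS1 and SOAT1, below them (background 13.6% and 13.9%). By the test, 10 genes rose in each line, namely FDFT1, SQLE, MSMO1, DHCR7, STARD4, LIPA, FASN, SCD, ELOVL6 and FADS2, while 6.94% of all genes did so. HMGCS1 and SOAT1 fell in each line, while 7.45% of all genes did so. ACAT2, TM7SF2, HSD17B7 and SREBF2 passed in no line. In an exact two-sided permutation test of the siRNA labels within lines, 17 of the 32 reached 0.0093, the smallest p this design can give, as did 27.6% of all genes. These are the same 15 and 2 genes whose libraries did not overlap in any line, so the test restates that count. The labels do not say that the 2 libraries of a group came from separate cultures, so the p-values measure the spread between these libraries.

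**Figure D2:**
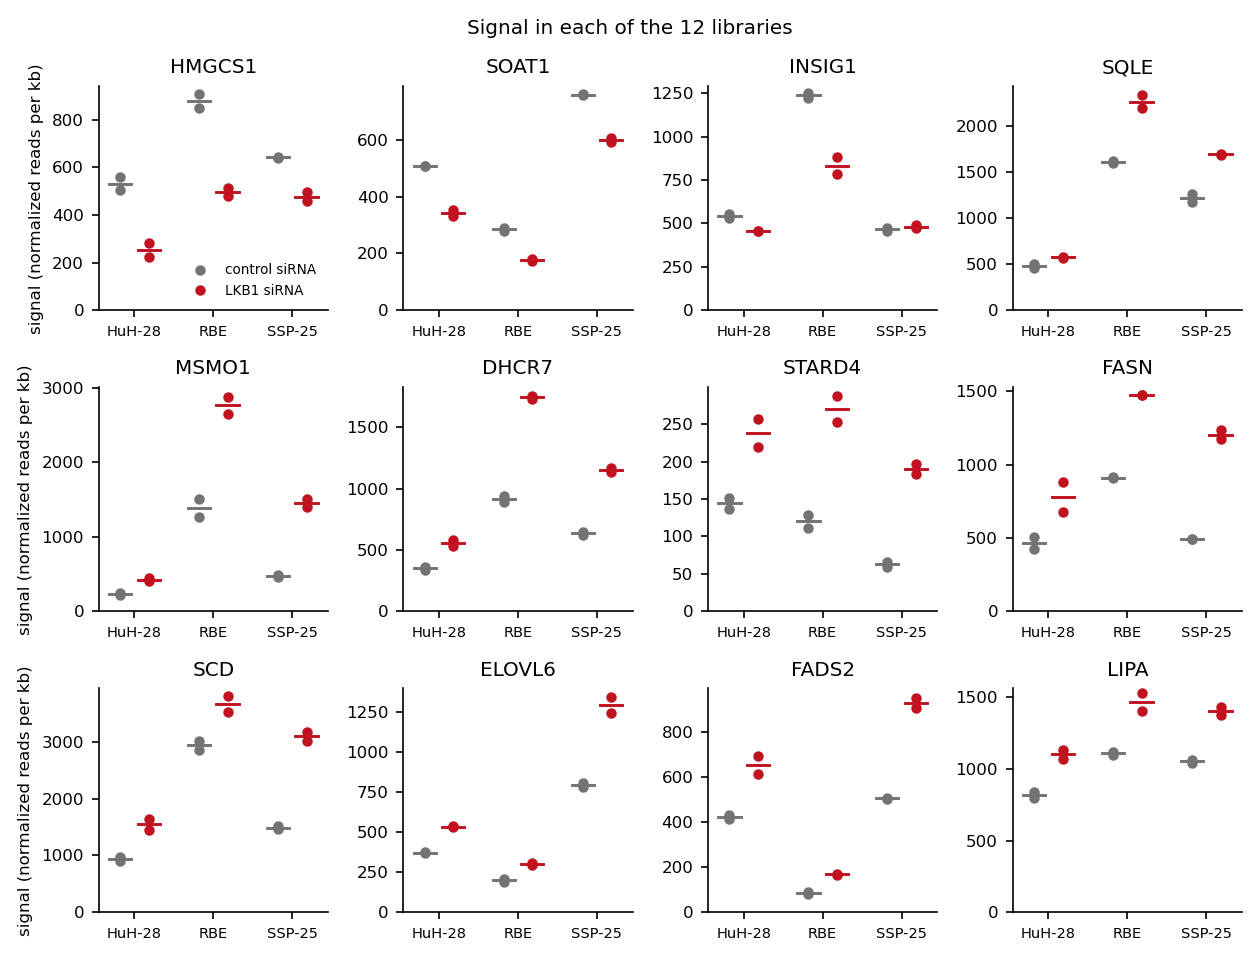
Signal (y axis, normalized reads per kilobase, starting at 0) of 12 lipid genes in each of the 12 libraries; gray points are control siRNA, red points LKB1 siRNA, and bars group means of 2 libraries. Red points lie below gray ones for HMGCS1 and SOAT1 throughout and for INSIG1 in HuH-28 and RBE, and above them for the other 9 genes in all 3 lines.

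The genes with the largest average differences in each direction were MSMO1 and STARD4, higher in every LKB1 siRNA library, and HMGCS1 and SOAT1, lower in every one, while SREBF2, which encodes the SREBP that favors sterol genes, did not pass. Their promoter sequences are shown because these members of 1 pathway moved in opposite directions or did not pass. RefSeq promoter entries (GRCh38.p14) matched 28 of the 32 genes, all but ACAT2, FDFT1, SQLE and FASN, and 9 of the 28 had several listed starts, of which the first was used. Each line gives the 250 bases before the start, 5′ to 3′ on the gene's strand, with the sterol regulatory element (SRE) core TCACNCCAC and the CCAAT box in capitals on either strand (ATTGG is the box read from the other strand). They lie at chr4:165327419-165327668 (plus strand) for MSMO1, chr5:111512536-111512785 (minus) for STARD4, chr5:43313413-43313662 (minus) for HMGCS1, chr1:179293547-179293796 (plus) for SOAT1 and chr22:41832855-41833104 (plus) for SREBF2, and the GENCODE v29 (GRCh38) start of each gene falls inside the stretch shown.
MSMO1: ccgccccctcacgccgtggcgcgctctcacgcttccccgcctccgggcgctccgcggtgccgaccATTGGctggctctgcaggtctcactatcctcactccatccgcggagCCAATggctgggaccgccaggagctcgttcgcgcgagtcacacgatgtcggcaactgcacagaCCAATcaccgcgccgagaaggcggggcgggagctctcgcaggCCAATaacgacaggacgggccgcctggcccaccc
STARD4: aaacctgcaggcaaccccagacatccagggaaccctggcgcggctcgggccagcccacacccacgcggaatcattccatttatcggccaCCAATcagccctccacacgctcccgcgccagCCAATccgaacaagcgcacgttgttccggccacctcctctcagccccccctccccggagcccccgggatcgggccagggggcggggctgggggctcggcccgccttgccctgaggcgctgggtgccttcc
HMGCS1: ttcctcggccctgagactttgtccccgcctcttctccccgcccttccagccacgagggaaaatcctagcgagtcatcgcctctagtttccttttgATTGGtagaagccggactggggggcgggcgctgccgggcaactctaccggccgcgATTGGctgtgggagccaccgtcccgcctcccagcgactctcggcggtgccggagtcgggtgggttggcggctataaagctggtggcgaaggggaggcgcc
SOAT1: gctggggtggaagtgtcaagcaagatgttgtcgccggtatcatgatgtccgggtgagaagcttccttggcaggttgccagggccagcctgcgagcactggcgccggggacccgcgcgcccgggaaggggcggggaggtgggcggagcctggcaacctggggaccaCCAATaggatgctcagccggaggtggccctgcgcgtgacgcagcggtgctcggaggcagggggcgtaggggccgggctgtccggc
SREBF2: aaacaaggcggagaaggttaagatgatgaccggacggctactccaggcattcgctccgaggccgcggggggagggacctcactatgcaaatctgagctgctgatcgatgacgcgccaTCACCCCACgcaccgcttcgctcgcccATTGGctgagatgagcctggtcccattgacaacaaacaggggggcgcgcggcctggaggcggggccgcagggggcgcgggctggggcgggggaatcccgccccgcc
MSMO1 held 4 CCAAT boxes, STARD4 and HMGCS1 2 each, and SOAT1 and SREBF2 1 each, so the box stood in promoters of genes that rose, fell and did not pass. The SRE core was found once, in SREBF2, starting at position -133 from the start. Only exact matches of this string were searched, so a promoter without a match is not shown to lack an SRE.

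Over the 300-base promoter entries, which run 50 bases past the start, matches were counted on both strands. The CCAAT box was in 16 of the 28 lipid genes (57.1%), in 35.7% of all 27305 promoters and in 36.5% of those of tested genes. The SRE core was in 1 of 28 (3.57%), 1.15% and 1.12%. The E-box CACGTG was in 3 of 28 (10.7%), 7.43% and 9.56%. The GC box GGGCGG was in 27 of 28 (96.4%), 44.6% and 64.4%. Matches of 1 motif were counted without regard to overlap with another. With any listed start allowed, the CCAAT box was in 20 of 28 (71.4%) and in 42.9% of tested genes, and the GC box in 28 of 28 and 71.1%. On the same count the E-box was in 3 of 28 (10.7%) and in 11.9% of tested genes, and the SRE core in 1 of 28 (3.57%) and 1.53%. These 4 motifs were kept of 9 strings tried, after their matches had been seen, and the counts are a description with no test.

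Of the 7 genes of the mevalonate steps, which turn acetyl-CoA into farnesyl diphosphate, 4 rose on average and 2 fell (background 27.3% and 25.2%). Their median log2 difference was 0.11. HMGCS1, the cytosolic HMG-CoA synthase that condenses acetyl-CoA with acetoacetyl-CoA, read 505 and 559 with control siRNA against 225 and 282 with LKB1 siRNA in HuH-28, 850 and 908 against 515 and 480 in RBE, and 644 and 639 against 460 and 497 in SSP-25. Its LKB1 siRNA libraries lay below the control libraries of every line, and SSP-25 showed the least separation. The log2 differences of HMGCS1 were -1.07 (HuH-28), -0.82 (RBE) and -0.42 (SSP-25), with an SE of 0.10 each and adjusted p = 4.8e-05, 0.00012 and 0.0064. On average it was at 0.585 of the control level (adjusted p = 2.1e-06), and the fall was larger in HuH-28 than in SSP-25 (difference of differences 0.65, adjusted p = 0.014). Without LKB1 siRNA replicate 1 of SSP-25, that line's fall had an adjusted p of 0.053. PMVK, phosphomevalonate kinase, read 405 and 516 with control siRNA against 358 and 457 with LKB1 siRNA in HuH-28, 915 and 882 against 811 and 785 in RBE, and 513 and 471 against 376 and 364 in SSP-25. Its libraries overlapped in HuH-28 and not in RBE or SSP-25. PMVK fell on average (-0.25 ± 0.07, adjusted p = 0.014) as well as within SSP-25 (-0.41 ± 0.12, adjusted p = 0.023). The SSP-25 call was lost without any 1 of that line's 4 libraries (adjusted p from 0.0502 to 0.13) and the average call without SSP-25 (adjusted p = 0.2).

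The other mevalonate genes rose or did not pass. IDI1, which isomerizes isopentenyl diphosphate, read 510 and 582 with control siRNA against 527 and 656 with LKB1 siRNA in HuH-28, 1488 and 1591 against 2109 and 1816 in RBE, and 985 and 1057 against 1456 and 1496 in SSP-25. Its groups overlapped in HuH-28 and stood apart in RBE and SSP-25, where it rose (0.35 ± 0.11 and 0.53 ± 0.11, adjusted p = 0.029 and 0.0032). FDPS, which joins the isoprenoid units into farnesyl diphosphate, read 1375 and 1495 with control siRNA against 1514 and 1673 with LKB1 siRNA in HuH-28, 2468 and 2321 against 2721 and 2636 in RBE, and 1524 and 1454 against 1869 and 1859 in SSP-25. It was higher in all 6 LKB1 siRNA libraries than in the controls of the same line, and rose on average (0.21 ± 0.04, adjusted p = 0.00078) as well as within SSP-25 (0.32 ± 0.06, adjusted p = 0.0026). MVK, mevalonate kinase, read 179 and 184 with control siRNA against 190 and 191 with LKB1 siRNA in HuH-28, 398 and 384 against 427 and 420 in RBE, and 237 and 216.16 against 274 and 265 in SSP-25. That is a small step up in every line, and it rose on average (0.15 ± 0.03, adjusted p = 0.0051) as well as within SSP-25 (adjusted p = 0.0069). MVD, the decarboxylase that makes isopentenyl diphosphate, read 466 and 496 with control siRNA against 482 and 509 with LKB1 siRNA in HuH-28, 713 and 701 against 866 and 859 in RBE, and 434 and 406 against 412 and 425 in SSP-25. It rose within RBE (0.29 ± 0.05, adjusted p = 0.0022) and on average (0.11 ± 0.03, adjusted p = 0.015), with differences of 0.04 in HuH-28 and -0.01 in SSP-25. ACAT2, the cytosolic thiolase at the head of the pathway, ranged from 2104 to 2821 over the 12 libraries and differed by 0.09 ± 0.05 on average (adjusted p = 0.18). Its groups stood apart only in SSP-25, where it did not pass (0.21 ± 0.09, adjusted p = 0.1). That difference passed with SSP-25 fitted alone (0.0045) and under quantile normalization (0.009), and the average passed without HuH-28 (0.01). ACAT2 shares 52.3% of its exonic bases with opposite-strand genes in GENCODE v29 (GRCh38), FDPS 18.6%, HMGCS1 15.0% and IDI1 14.8%, and the kit did not mark strand. Average calls were lost without RBE for MVD (0.02, adjusted p = 0.77, and 0.17 without SSP-25) and without SSP-25 for MVK (0.11) and IDI1 (0.069). Within lines, IDI1 in RBE was lost without LKB1 siRNA replicate 1 or either control library of RBE (0.062 to 0.2), and MVK in SSP-25 without LKB1 siRNA replicate 1 (0.0503) or control replicate 2 (0.061).

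The sterol steps, from farnesyl diphosphate through squalene and lanosterol, held 5 of 8 genes that rose on average and 1 that fell (background 27.3% and 25.2%). Their median log2 difference was 0.38. MSMO1, the methylsterol monooxygenase that removes methyl groups from lanosterol-derived sterols, read 247 and 216.04 with control siRNA against 402 and 444 with LKB1 siRNA in HuH-28, 1273 and 1505 against 2879 and 2649 in RBE, and 456 and 488 against 1401 and 1503 in SSP-25. Every LKB1 siRNA library was far above the controls of its line. MSMO1 rose by 0.87 ± 0.10, 1.00 ± 0.10 and 1.62 ± 0.10 in the same order of lines, a fold of 1.83, 1.99 and 3.07 (adjusted p = 0.00014, 2.8e-05 and 1.2e-06). The rise was larger in SSP-25 than in HuH-28 (by 0.75, adjusted p = 0.0065) and than in RBE (by 0.62, adjusted p = 0.011). DHCR7, the reductase that turns the dehydro precursor into cholesterol, read 361 and 340 with control siRNA against 582 and 531 with LKB1 siRNA in HuH-28, 939 and 892 against 1756 and 1729 in RBE, and 650 and 626 against 1134 and 1170 in SSP-25. The groups were well apart in every line, and DHCR7 rose by 0.67 (HuH-28), 0.93 (RBE) and 0.85 (SSP-25) (SE 0.06 each, adjusted p = 3.4e-05, 1.9e-06 and 3e-06). The 3 rises of DHCR7 were not shown to differ (adjusted p = 0.076).

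SQLE, squalene monooxygenase, a rate-limiting enzyme of the sterol steps, read 501 and 456 with control siRNA against 569 and 583 with LKB1 siRNA in HuH-28, 1601 and 1618 against 2336 and 2187 in RBE, and 1259 and 1169 against 1693 and 1687 in SSP-25. Again no control library reached an LKB1 siRNA library of its line, and SQLE rose by 0.27 (HuH-28), 0.49 (RBE) and 0.48 (SSP-25) (SE 0.06 each, adjusted p = 0.0073, 0.00013 and 0.00015). With HuH-28 fitted alone its call there was lost (adjusted p = 0.085). FDFT1, squalene synthase, read 1359 and 1577 with control siRNA against 1654 and 1836 with LKB1 siRNA in HuH-28, 1681 and 1621 against 2097 and 1957 in RBE, and 1483 and 1344 against 1988 and 2069 in SSP-25. It rose in each line by 0.25 (HuH-28), 0.30 (RBE) and 0.52 (SSP-25) (SE 0.08 each, adjusted p = 0.045, 0.017 and 0.0007), with the 2 HuH-28 control libraries spread almost as widely as the groups were apart. Without 1 library the HuH-28 call of FDFT1 was lost in 10 of 12 cases (adjusted p from 0.0505 to 0.26), and its RBE call without LKB1 siRNA replicate 1 or either control library of RBE (0.051 to 0.11). LSS, which closes squalene epoxide into lanosterol, was the sterol gene that fell on average (-0.16 ± 0.04, adjusted p = 0.0065). It read 423 and 401 with control siRNA against 345 and 332 with LKB1 siRNA in HuH-28, 491 and 506 against 450 and 435 in RBE, and 374 and 341 against 331 and 369 in SSP-25. The groups of LSS overlapped only in SSP-25, and it fell within HuH-28 (-0.28 ± 0.07, adjusted p = 0.012). The average call for LSS was lost without HuH-28 (0.098) or without RBE (0.055), and the HuH-28 call without its LKB1 siRNA replicate 2 (0.052) or control replicate 1 (0.066).

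CYP51A1, the lanosterol demethylase, read 408 and 364 with control siRNA against 388 and 372 with LKB1 siRNA in HuH-28, 864 and 974 against 957 and 895 in RBE, and 577 and 600 against 727 and 731 in SSP-25. It rose in SSP-25 (0.31 ± 0.07, adjusted p = 0.0071), where alone its groups stood apart, and not on average (0.10 ± 0.04, adjusted p = 0.072). Without SSP-25 control replicate 1 the adjusted p was 0.052. TM7SF2, a sterol reductase with most of its signal in RBE, read 28.3 and 18.7 with control siRNA against 25.6 and 23.5 with LKB1 siRNA in HuH-28, 274 and 219 against 454 and 414 in RBE, and 4.67 and 16.5 against 24.2 and 17 in SSP-25. It rose on average (0.69 ± 0.26, adjusted p = 0.046), but the SSP-25 controls alone ran from 4.67 to 16.5. No line passed in the main fit, and 9 of the 12 settings that left out 1 library lost the average call. Without SSP-25 control replicate 1 the average was 0.40 (adjusted p = 0.043), and without RBE it was 0.62 (adjusted p = 0.2). The RBE groups did not overlap, and RBE passed under 4 alternatives (adjusted p from 0.00049 to 0.025), among them RBE fitted alone and a pseudocount of 10. SSP-25 passed without its control replicate 2 (0.00087). HSD17B7, a sterol keto reductase with a near-identical pseudogene, ranged from 113 to 527 and differed by -0.08 (HuH-28), 0.03 (RBE) and 0.13 (SSP-25), none of which passed (adjusted p = 0.46, 0.84 and 0.19).

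**Figure D3:**
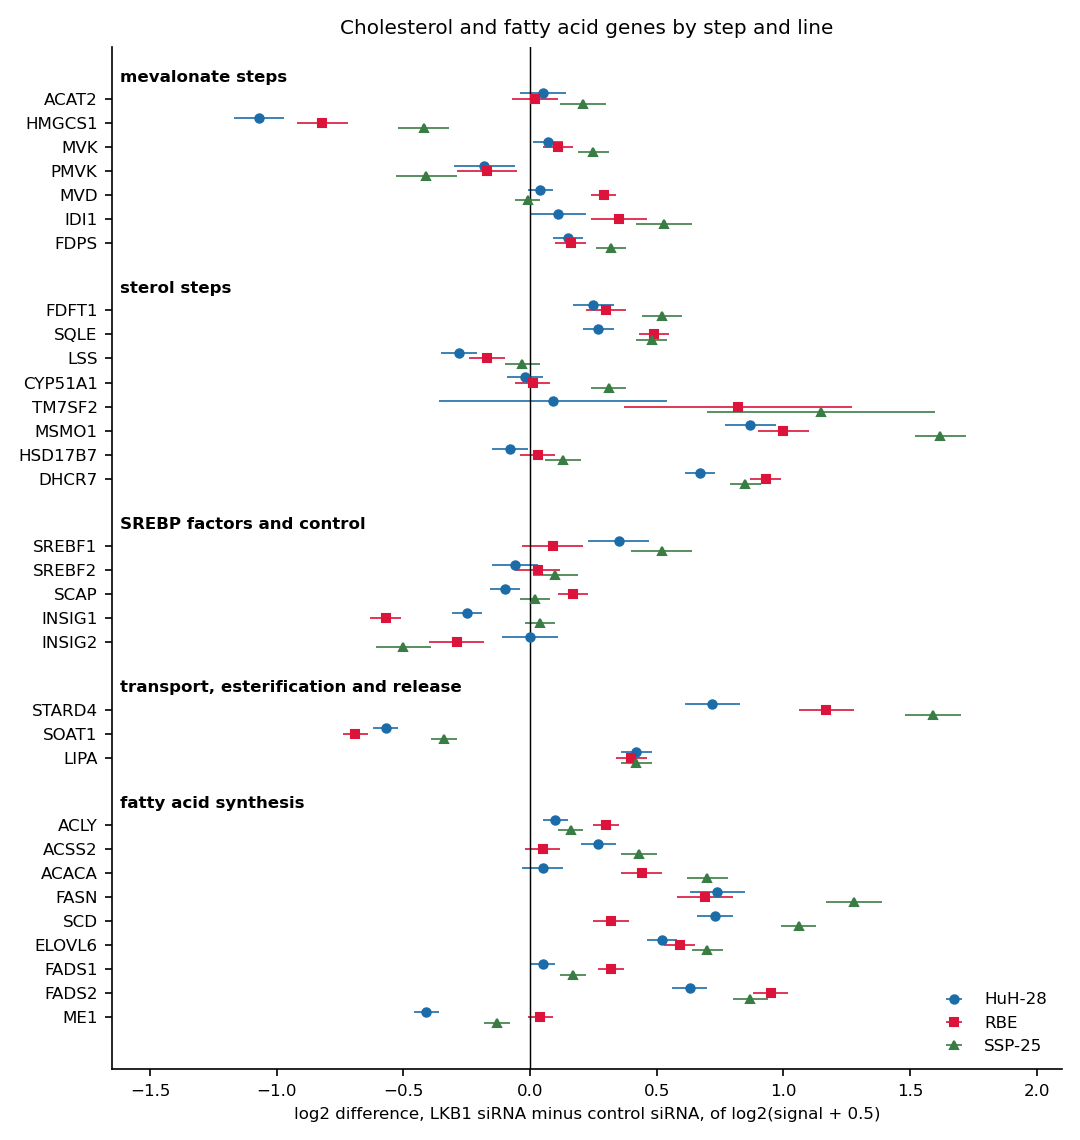
Log2 difference (x axis, LKB1 siRNA minus control siRNA, log2(signal + 0.5) scale) of the 32 lipid genes, grouped by pathway step, in HuH-28 (circles), RBE (squares) and SSP-25 (triangles); lines are 1 SE of the limma fit, with 2 libraries per group. HMGCS1 and SOAT1 lie left of 0 in every line, MSMO1, DHCR7, STARD4, FASN, SCD, ELOVL6, FADS2, SQLE and LIPA right of it, and TM7SF2 has the widest SE (0.45).

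Of the 5 genes of the SREBP factors and the proteins that hold or release them, 1 rose on average and 2 fell (background 27.3% and 25.2%). SREBF1, which encodes the SREBP that favors fatty acid genes, read 396 and 327 with control siRNA against 501 and 419 with LKB1 siRNA in HuH-28, 642 and 602 against 683 and 644 in RBE, and 147 and 160 against 201 and 241 in SSP-25. It lay higher with LKB1 siRNA in every line, and rose on average (0.32 ± 0.07, adjusted p = 0.003) as well as within SSP-25 (0.52 ± 0.12, adjusted p = 0.0059). The average call was lost without SSP-25 (0.062) and the SSP-25 call without its LKB1 siRNA replicate 2 (0.059). SREBF2 ranged from 475 to 1315 and differed by -0.06 (HuH-28), 0.03 (RBE) and 0.10 (SSP-25) (SE 0.09 each, adjusted p = 0.67, 0.82 and 0.42). SCAP, the sterol-sensing escort, read 814 and 790 with control siRNA against 784 and 711 with LKB1 siRNA in HuH-28, 430 and 413 against 471 and 479 in RBE, and 377 and 356 against 374 and 367 in SSP-25. Its groups stood apart in RBE, where it rose (0.17 ± 0.06, adjusted p = 0.038), and the other way in HuH-28 (-0.10 ± 0.06, adjusted p = 0.22). For RBE, 6 of the 12 settings that left out 1 library lost that call (adjusted p from 0.055 to 0.18).

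INSIG1, itself a target gene of SREBP and the protein that retains SCAP, read 557 and 530 with control siRNA against 456 and 458 with LKB1 siRNA in HuH-28, 1224 and 1251 against 880 and 785 in RBE, and 459 and 476 against 472 and 492 in SSP-25. It was lower with LKB1 siRNA in HuH-28 and RBE without overlap, and its groups overlapped in SSP-25. INSIG1 fell in RBE (-0.57 ± 0.06, adjusted p = 5e-05) and HuH-28 (-0.25 ± 0.06, adjusted p = 0.012), and differed by 0.04 ± 0.06 in SSP-25 (adjusted p = 0.6). All pairs of lines differed in this effect, RBE from HuH-28 by -0.32 (adjusted p = 0.033), SSP-25 from HuH-28 by 0.29 (0.044) and SSP-25 from RBE by 0.62 (0.0012). INSIG2, its paralog, read 275 and 318 with control siRNA against 284 and 310 with LKB1 siRNA in HuH-28, 417 and 484 against 386 and 351 in RBE, and 272 and 328 against 217 and 206 in SSP-25. It fell in SSP-25 (-0.50 ± 0.11, adjusted p = 0.0053) and on average (-0.26 ± 0.06, adjusted p = 0.0066), with a difference of 0.00 in HuH-28 and -0.29 in RBE. The average calls were lost without RBE for INSIG1 (-0.10, adjusted p = 0.078) and without SSP-25 for INSIG2 (-0.14, adjusted p = 0.17). Without SSP-25, INSIG1 averaged -0.41 (adjusted p = 0.00041). Within lines, INSIG1 in HuH-28 was lost without control replicate 1 (0.064) and INSIG2 in SSP-25 without control replicate 2 (0.051).

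Of the 3 genes of sterol transport, esterification and release, 2 rose and 1 fell in each line (background 6.94% and 7.45%). STARD4, a cytosolic carrier that moves cholesterol between membranes, read 137 and 151 with control siRNA against 219 and 257 with LKB1 siRNA in HuH-28, 111 and 128 against 288 and 253 in RBE, and 59.7 and 65.8 against 197 and 183 in SSP-25. Its groups stood apart in every line and by most in SSP-25, where it rose 3.01-fold. STARD4 rose by 0.72 ± 0.11, 1.17 ± 0.11 and 1.59 ± 0.11 across HuH-28, RBE and SSP-25 (adjusted p = 0.0011, 2.5e-05 and 3.6e-06), and SSP-25 exceeded HuH-28 by 0.87 (adjusted p = 0.0064). SOAT1, an enzyme of the endoplasmic reticulum that esterifies cholesterol for storage, read 506 and 509 with control siRNA against 330 and 352 with LKB1 siRNA in HuH-28, 280 and 291 against 174 and 180 in RBE, and 759 and 756 against 592 and 606 in SSP-25. Replicates were close and the groups far apart, and SOAT1 fell by 0.57, 0.69 and 0.34 on the log2 scale (SE 0.05 each, adjusted p = 4.1e-05, 5.6e-06 and 0.00051). The fall was smaller in SSP-25 than in RBE (by 0.35, adjusted p = 0.0092). LIPA, the lysosomal acid lipase that frees cholesterol from its esters, read 800 and 843 with control siRNA against 1073 and 1131 with LKB1 siRNA in HuH-28, 1122 and 1101 against 1529 and 1405 in RBE, and 1042 and 1063 against 1435 and 1380 in SSP-25. It rose by nearly the same amount in each line, 0.42 (HuH-28), 0.40 (RBE) and 0.42 (SSP-25) (SE 0.06 each, adjusted p = 0.0004, 0.0003 and 0.00022), and a difference between lines was not detected (adjusted p = 0.96, largest pairwise difference 0.02).

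In fatty acid synthesis all 9 genes passed on average, 8 that rose and 1 that fell (background 27.3% and 25.2%), with a median log2 difference of 0.40. FASN, which builds palmitate, read 505 and 426 with control siRNA against 884 and 680 with LKB1 siRNA in HuH-28, 908 and 913 against 1476 and 1472 in RBE, and 495 and 494 against 1171 and 1238 in SSP-25. Its groups stood apart in every line although the HuH-28 replicates were spread, and FASN rose by 0.74 ± 0.11, 0.69 ± 0.11 and 1.28 ± 0.11 (adjusted p = 0.00086, 0.00073 and 1.4e-05). The SSP-25 rise exceeded that of HuH-28 (by 0.54, adjusted p = 0.043) and of RBE (by 0.59, adjusted p = 0.027). SCD, stearoyl-CoA desaturase, which makes monounsaturated fatty acids, read 975 and 897 with control siRNA against 1647 and 1455 with LKB1 siRNA in HuH-28, 3009 and 2859 against 3796 and 3528 in RBE, and 1514 and 1459 against 3009 and 3171 in SSP-25. It rose by 0.73 (HuH-28), 0.32 (RBE) and 1.06 (SSP-25) (SE 0.07 each, adjusted p = 7.6e-05, 0.0056 and 3.1e-06). SSP-25 exceeded RBE by 0.74 (adjusted p = 0.0012), and HuH-28 exceeded RBE as well (RBE minus HuH-28 -0.41, adjusted p = 0.028). Without RBE LKB1 siRNA replicate 1 the RBE rise of SCD had an adjusted p of 0.051.

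ELOVL6, which elongates palmitate, read 376 and 368 with control siRNA against 538 and 530 with LKB1 siRNA in HuH-28, 211 and 188 against 305 and 298 in RBE, and 783 and 806 against 1240 and 1341 in SSP-25. FADS2, the desaturase that starts polyunsaturated fatty acid synthesis, read 431 and 413 with control siRNA against 691 and 613 with LKB1 siRNA in HuH-28, 91.8 and 81.9 against 167 and 169 in RBE, and 508 and 502 against 904 and 949 in SSP-25. Both were higher in every LKB1 siRNA library than in the controls of its line. ELOVL6 rose by 0.52 (HuH-28), 0.59 (RBE) and 0.70 (SSP-25) (SE 0.06 each, adjusted p = 0.00026, 5.4e-05 and 1.9e-05), and FADS2 rose by 0.63 (HuH-28), 0.95 (RBE) and 0.87 (SSP-25) (SE 0.07 each, adjusted p = 0.00021, 6.9e-06 and 1.1e-05). Neither was shown to differ between lines (adjusted p = 0.31 and 0.078). FADS1, a later desaturase of that route whose annotated span overlaps that of FADS2 on the other strand, read 938 and 984 with control siRNA against 982 and 1012 with LKB1 siRNA in HuH-28, 912 and 859 against 1112 and 1099 in RBE, and 1622 and 1622 against 1837 and 1819 in SSP-25. Rises passed for RBE (0.32 ± 0.05, adjusted p = 0.00043) and for SSP-25 (0.17 ± 0.05, adjusted p = 0.014), and the effect was larger in RBE than in HuH-28 (by 0.27, adjusted p = 0.027). The SSP-25 call was lost without any 1 of its 4 libraries (0.057 to 0.073), and without RBE the average was 0.11 (adjusted p = 0.041), against 0.18 with it.

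The enzymes that supply acetyl-CoA and malonyl-CoA had smaller average differences than FASN, SCD, ELOVL6 and FADS2. ACACA, acetyl-CoA carboxylase and a phosphorylation target of AMPK, read 286 and 263 with control siRNA against 303 and 266 with LKB1 siRNA in HuH-28, 386 and 355 against 509 and 498 in RBE, and 208 and 220 against 337 and 359 in SSP-25. It overlapped in HuH-28 and rose in RBE (0.44 ± 0.08, adjusted p = 0.0014) and SSP-25 (0.70 ± 0.08, adjusted p = 7.1e-05). RBE and SSP-25 both exceeded HuH-28 (by 0.39 and 0.65, adjusted p = 0.043 and 0.0049), and the average of 0.40 was 0.25 without SSP-25 (adjusted p = 0.013). ACLY, which splits citrate and had the highest mean signal of the 32 (3267), read 2177 and 2061 with control siRNA against 2342 and 2209 with LKB1 siRNA in HuH-28, 4208 and 3994 against 5099 and 5006 in RBE, and 2896 and 2825 against 3216 and 3172 in SSP-25. It rose on average (0.19 ± 0.03, adjusted p = 0.0005), as it did for RBE (0.30 ± 0.05, adjusted p = 0.0013) and SSP-25 (0.16 ± 0.05, adjusted p = 0.035), the last call lost without 1 library in 6 of 12 settings (0.054 to 0.16). ACSS2, which makes acetyl-CoA from acetate, read 373 and 413 with control siRNA against 444 and 507 with LKB1 siRNA in HuH-28, 394 and 406 against 417 and 412 in RBE, and 144 and 146 against 197 and 194 in SSP-25. It rose in HuH-28 (0.27 ± 0.07, adjusted p = 0.018) and SSP-25 (0.43 ± 0.07, adjusted p = 0.001) and more in SSP-25 than in RBE (by 0.38, adjusted p = 0.029). ACSS2 lost its HuH-28 call without LKB1 siRNA replicate 2 (0.1) or control replicate 1 (0.11), and its average call without SSP-25 (0.055). ME1, the malic enzyme that supplies NADPH, read 551 and 525 with control siRNA against 417 and 391 with LKB1 siRNA in HuH-28, 737 and 781 against 783 and 778 in RBE, and 1763 and 1724 against 1599 and 1582 in SSP-25. It was the fatty acid gene that fell, on average (-0.17 ± 0.03, adjusted p = 0.0008) and in HuH-28 (-0.41 ± 0.05, adjusted p = 0.00028), against 0.04 in RBE, a difference of 0.45 between the lines (adjusted p = 0.0036). Without HuH-28 the average of ME1 was -0.05 (adjusted p = 0.17), and without RBE -0.27 (adjusted p = 0.0011).

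The effect of LKB1 siRNA differed among the 3 lines for 12 of the 32 genes, against 28.3% of all genes. In 9 of the 12 the highest signed log2 difference was that of SSP-25, in 3 that of RBE (MVD, FADS1 and ME1) and in 0 that of HuH-28, while among all genes whose effect differed SSP-25 was highest in 35.5%, RBE in 38.3% and HuH-28 in 26.2%. Over all 32 genes SSP-25 had the highest signed difference in 21, and over all genes tested in 35%. A highest signed difference is not always the largest change, since for HMGCS1, SOAT1, INSIG1 and LSS the difference of SSP-25 was the smallest in size. By size, SSP-25 was largest in 19 of the 32, RBE in 9 and HuH-28 in 4, against 40%, 37% and 23% of all genes. The count of 12 was 6 without SSP-25 LKB1 siRNA replicate 2 or SSP-25 control replicate 1.

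With control siRNA, RBE had the highest signal in 24 of the 32 genes, 21 of them above the next line by the test (background 23.1%). SSP-25 was highest in 5 and HuH-28 in 3. Of all genes tested, RBE was highest in 33.5%, SSP-25 in 30.8% and HuH-28 in 35.7%. HuH-28 was lowest in 17 genes, SSP-25 in 11 and RBE in 4, and the share of all genes lowest in each line was not counted. The median log2 difference of RBE from HuH-28 was 0.73 over the 32, against -0.01 over all genes, and that of SSP-25 from RBE was -0.62 against 0.00. A difference among lines passed for 30 of the 32, in a background of 90.5%, and not for ACAT2 or FDFT1. RBE was highest in all 8 sterol genes. MSMO1 averaged 1389 in RBE, 472 in SSP-25 and 231 in HuH-28, and each neighboring pair differed (adjusted p = 1.7e-07 and 3.8e-06). SQLE followed the same order with 1610, 1214 and 478 (adjusted p = 0.00012 and 1.4e-08). TM7SF2 averaged 247 in RBE and 23.5 and 10.6 in HuH-28 and SSP-25 (adjusted p = 4.9e-05 and 0.02).

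The factors and their retention proteins were ordered alike in part. SREBF2 averaged 1271 in RBE, 771 in SSP-25 and 540 in HuH-28, with all steps past the test. SREBF1 averaged 622 in RBE, 362 in HuH-28 and 153 in SSP-25, so that SSP-25 was lowest for the one factor and in the middle for the other. INSIG1 was 1237 in RBE, more than 2-fold above HuH-28 (544) and SSP-25 (468). SCAP was highest in HuH-28 (802), ahead of RBE (421) and SSP-25 (366).

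RBE was not highest in 8 genes, among them 4 of the 9 of fatty acid synthesis. FADS2 averaged 505 in SSP-25, 422 in HuH-28 and 86.9 in RBE, a 5.82-fold range, and ELOVL6 795, 372 and 200 in the same order. FADS1 (1622 in SSP-25) and ME1 (1743 in SSP-25) were highest there too, whereas FASN (910) and SCD (2934) were highest in RBE. SOAT1 averaged 758 in SSP-25, 507 in HuH-28 and 286 in RBE, and STARD4 averaged 144 for HuH-28, 120 for RBE and 62.7 for SSP-25. Some neighbors in these orders were not told apart by the test, among them FASN in SSP-25 and HuH-28 (adjusted p = 0.46), ACSS2 in RBE and HuH-28 (0.74), LIPA in RBE and SSP-25 (0.23), and PMVK, FDPS and INSIG2 in SSP-25 and HuH-28 (0.46, 0.46 and 0.93).

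**Figure D4:**
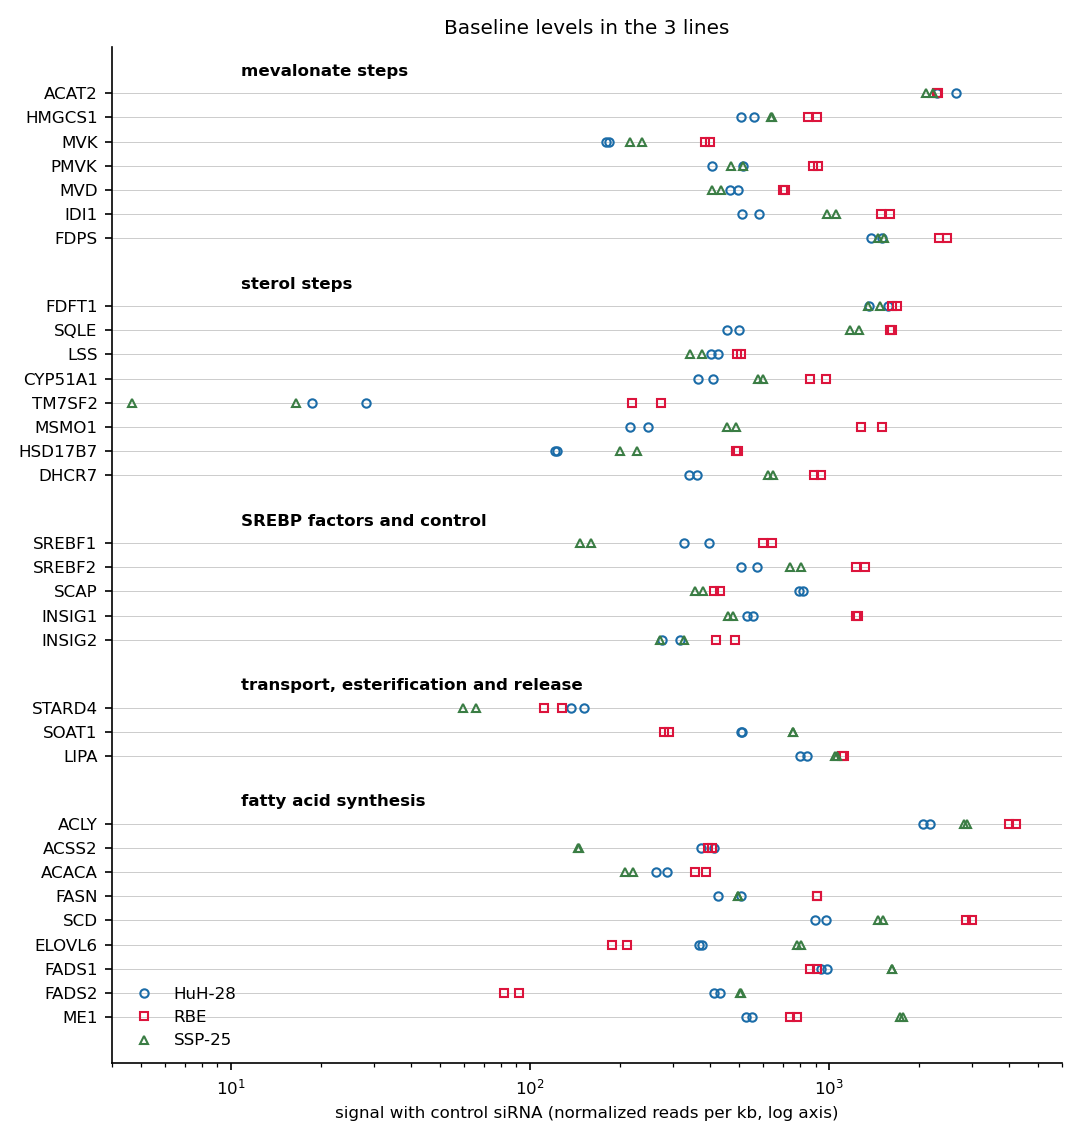
Signal with control siRNA (x axis, normalized reads per kilobase, log axis) of the 32 lipid genes in the 2 control libraries of HuH-28 (circles), RBE (squares) and SSP-25 (triangles). RBE lies farthest right in all 8 sterol genes and farthest left in SOAT1, ELOVL6, FADS1 and FADS2.

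Other genes of the same routes, listed with earlier results of these data known, changed in both directions. Of 7 further sterol and isoprenoid genes, 2 rose and 2 fell on average. SC5D, the desaturase just before DHCR7, fell (-0.41 ± 0.06, adjusted p = 0.00019), as did GGPS1, which makes geranylgeranyl diphosphate (-0.26 ± 0.04, adjusted p = 0.00044). Of 6 genes of SREBP processing, 3 rose and 1 fell, and MBTPS1, the protease that first cuts SREBP, rose (0.35 ± 0.03, adjusted p = 7.9e-06). Of 12 genes of sterol transport and export, 5 rose and 2 fell. SCARB1, a lipoprotein receptor, rose (0.82 ± 0.03, adjusted p = 7.1e-09), ABCA1, a cholesterol exporter, rose (0.60 ± 0.05, adjusted p = 5.2e-06) and STARD3, an endosomal sterol carrier, fell (-0.76 ± 0.04, adjusted p = 1.2e-07). Of 17 further genes of lipid synthesis, 10 rose and 3 fell. ELOVL7, an elongase of saturated long chains, rose (1.61 ± 0.09, adjusted p = 2.8e-07), ACSL4, an acyl-CoA synthetase, rose (0.34 ± 0.03, adjusted p = 5e-06), and DGAT2, which makes triglyceride, fell (-0.68 ± 0.05, adjusted p = 2.2e-06). The background for these counts is the average of 27.3% that rose and 25.2% that fell.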

How the data were processed

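RNA-seq libraries (TruSeq RNA V2, no strand marking) of 3 cell lines with control or LKB1 siRNA were used, 12 in all. The authors deposited 1 table of normalized signal (normalized reads per kilobase). Per the paper's methods, reads were aligned with NextGENe to NCBI Build 36.1 and counted on RefSeq mRNA. TopHat 1.2.0, edgeR and hg19 stand in the submitters' processing notes, and the sources used here do not say which route led to the deposited signal. Of 18815 rows, 28 with a date for a symbol, 17 repeated rows and 18 with an ambiguous symbol were left out. The unit was not a count, so limma 3.58.1 (R 4.3.3) was fitted to log2(signal + 0.5) over the 6 groups, moderated along the mean-variance trend. Genes entered if 2 or more libraries had a signal of 1 or more, which left 16114, and p-values were adjusted over these by Benjamini-Hochberg. Residual and prior degrees of freedom were 6 and 3.7. On simulated data the fit recovered a smaller share of the changed genes than the share first required, and criteria on bias and false calls, which it met, were used in place of that one. Exact permutation tests were two-sided. Within-line contrasts, their average and their differences were tested, and baseline was compared among control groups. All 32 genes are described, with values in every library for those that passed or differed between lines. Up to 3 genes per further pathway list are named, by the smallest average p-value. A gene that this rule would name is not reported here. The members and lists were chosen with earlier results of these data known. The alternatives were other pseudocounts, filters and scalings, no trend, a fold threshold, a replicate block, each line alone, and each library or line left out. The background of genes with a mean of at least 100 and the motifs were added after seeing the data. Positions are from GENCODE v29 (GRCh38) and promoters from RefSeq (GRCh38.p14). Python 3.11.15, pandas 2.3.3 and matplotlib 3.10.9 were used.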

Additional observations from a re-analysis of the deposited data

Results flagged for a closer look

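In all, 12 genes had an effect of LKB1 siRNA that differed between lines by the test of the difference itself. Values are the largest pairwise difference of log2 differences, with its SE and limma adjusted p. For SSP-25 minus HuH-28 it was 0.65 ± 0.14 for HMGCS1 (adjusted p = 0.014), 0.75 ± 0.14 for MSMO1 (adjusted p = 0.0065), 0.87 ± 0.16 for STARD4 (adjusted p = 0.0064), 0.65 ± 0.11 for ACACA (adjusted p = 0.0049). For SSP-25 minus RBE it was -0.29 ± 0.08 for MVD (adjusted p = 0.026), 0.62 ± 0.09 for INSIG1 (adjusted p = 0.0012), 0.35 ± 0.07 for SOAT1 (adjusted p = 0.0092), 0.38 ± 0.10 for ACSS2 (adjusted p = 0.029), 0.59 ± 0.16 for FASN (adjusted p = 0.027), 0.74 ± 0.10 for SCD (adjusted p = 0.0012). For RBE minus HuH-28 it was 0.27 ± 0.07 for FADS1 (adjusted p = 0.027), 0.45 ± 0.07 for ME1 (adjusted p = 0.0036). Of these 12, the sign of the effect was the same in every line for HMGCS1, MSMO1, STARD4, SOAT1, ACSS2, ACACA, FASN, SCD and FADS1, and it was not for MVD, INSIG1 and ME1. Groups of 2 libraries were too small to test a single library as standing apart.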

How the results depend on the processing

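Of 128 pairs of gene and comparison, 85 kept their call under each of the 23 to 25 alternatives that could be run for them, and 0 reversed. With a log2 difference above 1 required as well, 2 rose and 0 fell on average, HuH-28 had 0 and 1, RBE 1 and 0, and SSP-25 4 and 0. With each line fitted alone, 8 rose and 3 fell in HuH-28, in place of 11 and 5, and 6 fell in RBE. The HuH-28 calls lost there were those of FDFT1, SQLE, LSS, INSIG1 and ACSS2 (adjusted p from 0.069 to 0.17). With 1 library left out, the number that fell ranged from 3 to 5 in HuH-28 and from 2 to 5 in SSP-25, and the number whose effect differed between lines from 6 to 14. The HuH-28 count was 3 without control replicate 1, and the SSP-25 count was 2 without LKB1 siRNA replicate 1 or control replicate 2. Without the mean-variance trend, 7 effects differed between lines in place of 12. At baseline, FADS1 in RBE against HuH-28 turned from -0.12 to 0.00 under quantile normalization (adjusted p = 0.97). Separately, 85 of the pairs had an adjusted p under 0.05 in the main fit, and these are not the same 85 as above. Of these calls, 17 were lost without some 1 library. Of the 27 average calls, 11 were lost without some 1 line. No scaling moved the median of all genes by over 0.1, and genes that rose were 52% of all average calls, or 47.3% under quantile normalization. The cause of these changes was not tested.

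Same-numbered libraries were not paired by the labels, so the replicate block was an alternative only. Deviations of same-numbered libraries from the group means correlated at 0.43 in HuH-28, against 0.0023 in RBE and 0.032 in SSP-25. With a replicate block within line, 20 genes rose and 7 fell on average, and 21 effects differed between lines in place of 12. With a single replicate block over all lines, the counts were 19, 7 and 13. In HuH-28, the block within line gave 14 genes that rose and 6 that fell, in place of 11 and 5. It gave 17 and 4 in RBE, in place of 16 and 3, and 20 and 5 in SSP-25, in place of 19 and 4. The 2 libraries per group and the unknown depth limit the precision of small differences.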
